A study of Mus musculus with 4 samples.

Results

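The histone genes described here were the 67 mouse genes, of 32285 in the count tables, whose symbols begin with Hist1h, Hist2h, Hist3h or Hist4h. They comprised 6 linker histone H1 genes, 18 H2A, 18 H2B, 12 H3 and 13 H4 genes, of which 54 lie on chromosome 13, 10 on chromosome 3, 2 on chromosome 11 and 1 on chromosome 6. They were followed in 4 single-cell RNA-seq libraries of cultured cells from adipose tissue of chow-fed C57BL/6J male mice. In iWAT_DFAT and eWAT_DFAT the cells were de-differentiated fat (DFAT) cells, obtained by letting mature adipocytes of inguinal (iWAT) or epididymal (eWAT) white adipose tissue float up and attach to the upper wall of a filled flask. In iWAT_SVF and eWAT_SVF the cells were cultured from the stromal vascular fraction (SVF) of the same depots, which holds the adipose stem and progenitor cells (ASPCs) of the tissue. Cells were detached with trypsin, stained with the dead-cell dye 7-AAD, sorted and loaded on a droplet system that primes cDNA synthesis at poly(A) tails and counts molecules (UMIs) near their 3′ ends. The labels name no age and no number of mice, and each group was 1 library, so no difference between libraries has a replicate check, and intervals cover counting error only.

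Core histones H2A, H2B, H3 and H4 form the spool around which DNA is wound, and H1 binds the linker DNA between spools. Most genes in the Hist clusters are expressed in S phase, when new DNA has to be packaged, and their mRNAs usually end in a conserved stem-loop bound by SLBP rather than in a poly(A) tail. Replication-independent variants such as H3.3 and H2A.Z are encoded elsewhere, by genes with introns and polyadenylated mRNAs, and are made throughout the cycle. A kit that primes at poly(A) therefore sees only part of the RNA of an S phase histone gene, and levels below are levels of captured molecules.

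A stem-loop was found after the stop codon of 46 of the 67 genes (4 of 6 H1, 11 of 18 H2A, 10 of 18 H2B, 9 of 12 H3 and 12 of 13 H4). In the annotation, 94 of 21901 protein-coding genes (0.429%) had a match anywhere in a transcript, a looser count that includes the members. The same 16 bases, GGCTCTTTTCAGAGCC, occurred in 26 of the 46, across H1, H2A, H2B and H3, while the H4 genes carried forms of their own. The 8 sites below are those of members on which the results turn, read on the strand of the gene in build GRCm38 with the stem-loop in capitals.
Hist1h1e (minus strand, chr13:23621777-23621802): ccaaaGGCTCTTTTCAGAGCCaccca
Hist1h1c (plus strand, chr13:23739507-23739532): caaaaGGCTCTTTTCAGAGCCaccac
Hist1h2ap (minus strand, chr13:21833026-21833049): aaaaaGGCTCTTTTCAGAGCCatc
Hist3h2a (plus strand, chr11:58955167-58955192): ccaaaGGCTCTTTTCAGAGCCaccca
Hist1h2be (minus strand, chr13:23585526-23585551): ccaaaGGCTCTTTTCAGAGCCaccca
Hist1h3c (minus strand, chr13:23745042-23745067): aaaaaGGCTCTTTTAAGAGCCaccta
Hist1h4d (plus strand, chr13:23581945-23581970): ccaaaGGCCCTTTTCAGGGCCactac
Hist1h4i (minus strand, chr13:22040961-22040986): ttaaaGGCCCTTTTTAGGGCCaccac
Hist1h1b, the gene that was used to split the cells, is annotated only to its stop codon, and Hist1h2bc, the H2B gene with the highest level, had no match in the 742 bases annotated after its stop. A missing match says only that these letters were not in the annotated transcript.

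The promoters of 4 genes are shown because Hist1h1b and Hist1h1e were the 2 highest H1 genes, Hist1h2ae the H2A gene next to Hist1h2ap and Hist1h4d the highest H4 gene, and because the other 3 were higher in cells with Hist1h1b. They are the 150 bases before the RefSeq start in build GRCm38.p6, in the direction of transcription, with matches to 4 searched motifs in capitals on either strand.
Hist1h1b promoter (minus strand, chr13:21780626-21780775): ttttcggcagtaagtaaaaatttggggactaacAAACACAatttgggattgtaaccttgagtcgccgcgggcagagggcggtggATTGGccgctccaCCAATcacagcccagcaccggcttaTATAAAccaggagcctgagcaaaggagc
Hist1h1e promoter (minus strand, chr13:23622559-23622708): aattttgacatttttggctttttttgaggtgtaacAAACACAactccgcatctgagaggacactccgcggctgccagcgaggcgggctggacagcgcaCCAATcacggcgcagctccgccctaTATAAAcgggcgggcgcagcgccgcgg
Hist1h2ae promoter (minus strand, chr13:23571221-23571370): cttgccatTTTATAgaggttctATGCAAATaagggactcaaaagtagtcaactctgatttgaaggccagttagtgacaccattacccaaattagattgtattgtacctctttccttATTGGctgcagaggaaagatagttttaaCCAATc
Hist1h4d promoter (plus strand, chr13:23581418-23581567): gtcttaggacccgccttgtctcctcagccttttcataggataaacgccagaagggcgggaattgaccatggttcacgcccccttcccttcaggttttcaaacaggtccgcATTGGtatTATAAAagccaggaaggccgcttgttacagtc
The motifs were the octamer ATTTGCAT, the CCAAT box, TATAAA and the H1 box AAACACA, searched over the 250 bases before the start of the 62 members with a RefSeq entry. CCAAT was present in 51 of 62 members, namely 6 of 6 H1, 18 of 18 H2A, 16 of 16 H2B, 8 of 10 H3 and 3 of 12 H4, against 33.8% of all promoters. The octamer occurred in 7 of 18 H2A and 6 of 16 H2B promoters and in no other class (1.60% of all promoters), and the H1 box in 5 of 6 H1 promoters and 9 of 62 members (6.25%). TATAAA was found in 29 of 62 (12.4%).

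Cells were barcodes with 5000 to 75000 UMIs, 200 to 7500 genes and under 10% mitochondrial UMIs, which left between 6464 and 7629 cells and between 183664704 and 199357348 UMIs per library. Between 113715 and 187577 of those were histone UMIs, and a count of 0 allowed a level of up to 0.0150 to 0.0163 CPM (counts scaled to a library total of 1000000 UMIs). Library pairs shared 13 to 20 cell barcodes. The 9 stromal markers were detected in every library, summing to 7138 CPM in iWAT_DFAT, 2376 in eWAT_DFAT, 7507 in iWAT_SVF and 6921 in eWAT_SVF. The 5 adipocyte markers summed to 22.5, 89.4, 0.426 and 1.16 CPM in the same order with Lep at 0 in all 4, and no endothelial, mesothelial, immune, pericyte or glial list summed above 88.4 CPM. Their part in the results was not tested. The files name Cell Ranger 4 for iWAT_SVF and 7.1.0 for the other libraries, so a level in iWAT_SVF relative to another library cannot be told apart from that difference in counting. Shares within the histone UMIs do not depend on the library total, but a difference in counting that acts gene by gene could move them too.

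The question put to the 4 libraries was which histone genes they expressed and in what proportion. Summed over the 67 members, the level was 619 CPM in iWAT_DFAT, 773 in eWAT_DFAT, 941 in iWAT_SVF and 841 in eWAT_SVF. The libraries thus lay within 1.52-fold of each other, with iWAT_DFAT lowest and iWAT_SVF highest. A sum over a library does not separate fewer expressing cells from less RNA per cell. In droplets with 1 to 100 UMIs, which hold free RNA, the summed level was 471, 563, 761 and 1140 CPM in that order, so that in eWAT_SVF it was above the level in cells.

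The make-up of the histone UMIs differed more than their sum. Linker histone H1 genes gave 45.1% of histone UMIs in iWAT_DFAT, 42.2% in eWAT_DFAT, 25.7% in iWAT_SVF and 37.7% in eWAT_SVF. H2A genes gave 21.5%, 24.4%, 43.5% and 26.2%, so that iWAT_SVF was the library in which H2A exceeded H1. H2B genes gave 13.9%, 15.99%, 17.9% and 24.9%, H3 genes 6.06%, 6.36%, 4.84% and 3.44%, and H4 genes 13.4%, 11.1%, 8.09% and 7.78%. Single genes weighed heavily in the H2A and H2B sums. Without Hist1h2ap the H2A level was 79.5, 111, 132 and 79.7 CPM, and without Hist1h2bc the H2B level was 29.3, 33.3, 30.8 and 21.6 CPM. With both left out, the summed level of all other members was 508, 605, 526 and 513 CPM, and differences between libraries remained. The log2 ratio of the summed level went from -0.60 to -0.05 for iWAT_DFAT to iWAT_SVF, from -0.32 to -0.25 for iWAT_DFAT to eWAT_DFAT, from 0.16 to 0.04 for iWAT_SVF to eWAT_SVF, and from -0.12 to 0.24 for eWAT_DFAT to eWAT_SVF. The H2A ratio without Hist1h2ap was -0.48 between the DFAT depots (-0.50 with it) and 0.73 between the SVF depots (0.89 with it). For eWAT_DFAT to eWAT_SVF the sign turned when the single gene was left out, from -0.22 to 0.48 for H2A and from -0.76 to 0.62 for H2B, as it did for H2B between the SVF depots, from -0.31 to 0.51.

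**Figure D1:**
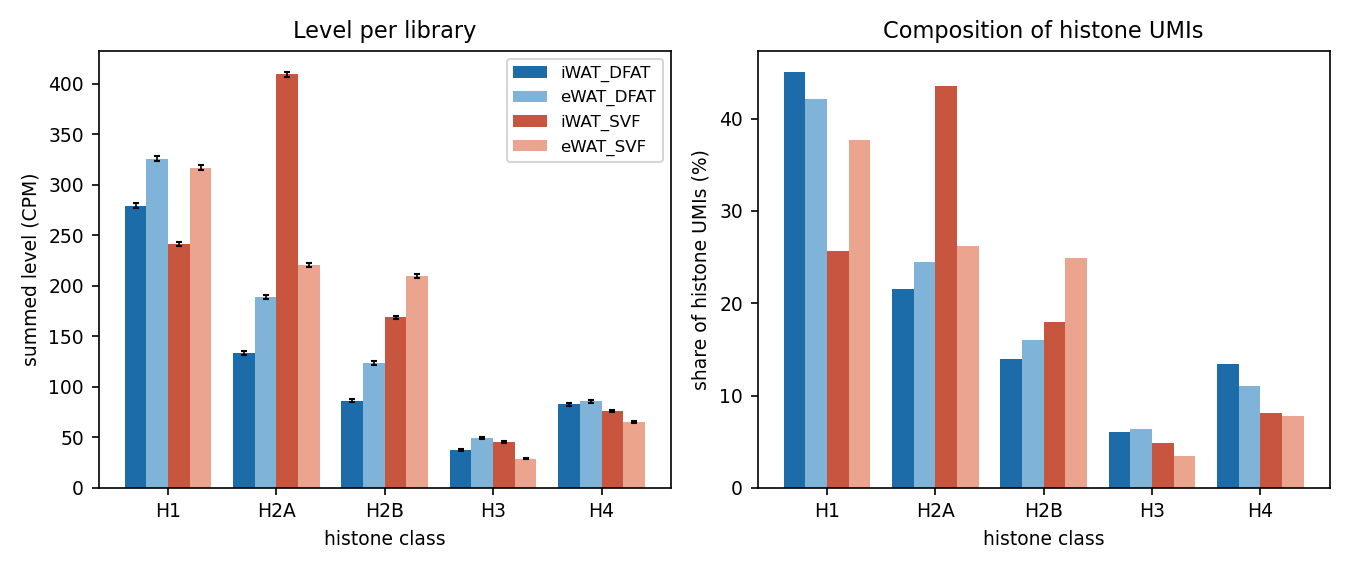
Summed level of each histone class in CPM (left, bars with 95% Poisson intervals) and share of each class in the histone UMIs in percent (right), for the 4 libraries. H1 was the leading class except in iWAT_SVF, where H2A reached 409 CPM and 43.5%.

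Few members carried most of the signal. The 5 highest members held 61.1% of histone UMIs in iWAT_DFAT, 61.3% in eWAT_DFAT, 68.1% in iWAT_SVF and 74.7% in eWAT_SVF, and they were Hist1h1b, Hist1h1e, Hist1h2ap, Hist1h2bc and either Hist1h4d (iWAT_DFAT) or Hist1h1c. Of the 67 members, 22 reached 5 CPM in at least 1 library and 16 in all 4, and 43 had UMIs but stayed under 5 CPM. Hist1h2ba and Hist1h2aa had no UMI in any library. Levels of different genes are given as captured molecules at the 3′ end, not per length.

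Among the H1 genes, Hist1h1b (H1.5), which compacts chromatin between nucleosomes, was the highest, at 153 CPM in iWAT_DFAT, 174 in eWAT_DFAT, 115 in iWAT_SVF and 142 in eWAT_SVF. Both DFAT libraries were above both SVF libraries. Hist1h1e (H1.4) was at 74.8, 85.7, 58.1 and 88.4 CPM, and Hist1h1c (H1.2) at 36.7, 46.3, 52.6 and 69.7 CPM, with the SVF libraries above the DFAT libraries for Hist1h1c. Hist1h1d (H1.3) lay between 7.30 and 10.8 CPM and Hist1h1a (H1.1) between 6.48 and 9.39 CPM.

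Among the H2A genes, Hist1h2ap was at 53.9 CPM in iWAT_DFAT, 77.7 in eWAT_DFAT, 277 in iWAT_SVF and 141 in eWAT_SVF. It spanned the widest range in CPM of the members and made up 8.70%, 10.1%, 29.4% and 16.7% of histone UMIs. Of the 91-base windows of its transcript, 92.3% occur in other genes, 19 in number, so a read within them cannot be assigned to it alone. How such reads were counted was not tested. Hist1h2ae was at 28.4, 45.4, 52.0 and 30.6 CPM and Hist2h2ac at 18.8, 26.3, 18.9 and 13.6 CPM.

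Among the H2B genes, Hist1h2bc was at 56.9 CPM in iWAT_DFAT, 90.2 in eWAT_DFAT, 138 in iWAT_SVF and 188 in eWAT_SVF. Both SVF libraries were above both DFAT libraries, and no other H2B gene reached 10 CPM. Hist1h2bj was at 5.30 to 8.18 CPM and Hist1h2be at 4.28 to 6.44 CPM. Hist1h2be is annotated across Hist1h1e on the same strand, so reads in the overlap cannot be assigned to either.

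The H3 genes were low. Hist1h3c was at 10.0 CPM in iWAT_DFAT, 15.6 in eWAT_DFAT, 13.2 in iWAT_SVF and 4.72 in eWAT_SVF, with eWAT_SVF below the other libraries, and Hist1h3e (8.01 to 13.1 CPM) and Hist1h3f (2.91 to 5.16 CPM) were also lowest in eWAT_SVF. The H4 genes, whose products are near-identical proteins, were led by Hist1h4d at 39.7, 39.7, 37.6 and 33.4 CPM, the most even of the 5 class leaders. Hist1h4i was at 24.6 and 25.1 CPM in the DFAT libraries and 16.3 and 16.5 CPM in the SVF libraries, and Hist1h4h at 7.57 to 9.84 CPM.

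**Figure D2:**
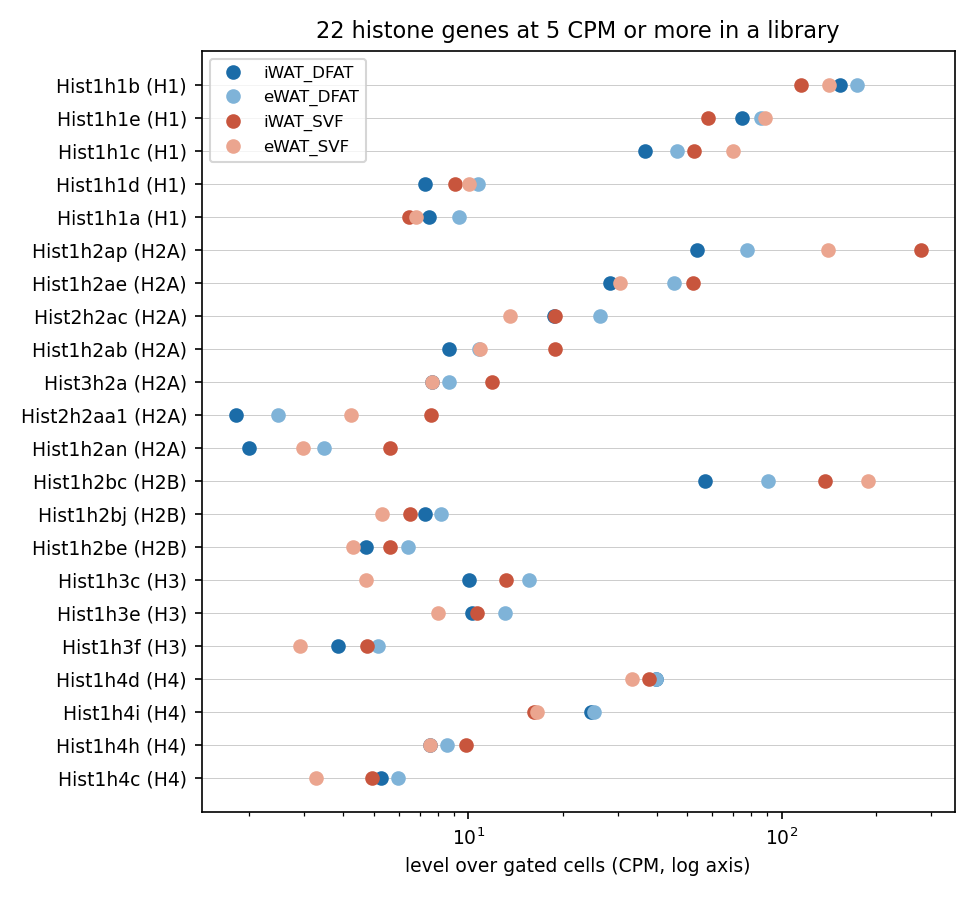
Level in CPM (log axis) of the 22 histone genes at 5 CPM or more in at least 1 library, with 1 point per library, ordered by class. Hist1h2ap spread from 53.9 to 277 CPM and Hist1h2bc from 56.9 to 188 CPM, whereas the points of Hist1h4d lay between 33.4 and 39.7 CPM.

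Libraries were then compared by depot and by cell type, calling a member only when its level differed by 2-fold or more and reached 5 CPM in the higher library. The 4 comparisons share libraries, so their values are given side by side. Between the depots of DFAT cells no member of 20 passed in either direction (background over all genes 8.29% higher and 3.95% lower in iWAT_DFAT). The members' median log2 ratio was -0.33, beside 0.09 over all genes tested. Between the depots of SVF cells, 1 of 20 members passed, Hist1h3c at 2.79-fold higher in iWAT_SVF (log2 1.48, interval 1.37 to 1.59), against a background of 2.94%, and none was lower (background 3.94%). The members' median was 0.39, beside 0.05 over all genes.

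Between cell types in iWAT, 5 of 21 members fell in iWAT_DFAT relative to iWAT_SVF, beside 5.18% of all genes tested, and none was higher (9.91%). These were the H2A genes Hist1h2ap (log2 -2.36, interval -2.39 to -2.33), Hist2h2aa1 (-2.07), Hist1h2ab (-1.13) and Hist1h2an and the H2B gene Hist1h2bc (-1.28). Hist1h2ap was thus 5.14-fold and Hist1h2an 2.82-fold lower in iWAT_DFAT. Hist2h2aa1 stood at 1.82 and 7.61 CPM, Hist1h2an at 2.00 and 5.65 CPM and Hist1h2ab at 8.67 and 18.9 CPM in iWAT_DFAT and iWAT_SVF. The median of the 21 was -0.31, beside 0.09 over all genes. In eWAT, 1 of 20 members was higher in eWAT_DFAT than in eWAT_SVF, Hist1h3c at 3.31-fold (log2 1.72, interval 1.62 to 1.83, background 6.44%), and 1 was lower, Hist1h2bc at 2.08-fold (log2 -1.06, interval -1.09 to -1.03, background 6.67%). Hist1h2ap did not reach the limit there, at log2 -0.86. The members' median was 0.37, beside 0.07. In a single direction, iWAT_DFAT against iWAT_SVF was the comparison with more than 1 member called. These libraries were counted with Cell Ranger 7.1.0 and 4, so these calls cannot be told apart from that difference in counting. The called H2A genes share many 91-base windows with other genes (Hist1h2ap 92.3%, Hist2h2aa1 88.5%, Hist1h2an 83.8% and Hist1h2ab 53.5%). For Hist1h2bc the share was 26.0%. How reads in shared windows were counted was not tested.

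Hist2h2aa1 and Hist1h2an met the minimum only through iWAT_SVF, and Hist1h3c met it in the comparisons with eWAT_SVF only through the other library, so each had to differ once it was counted. The members were therefore also counted with the 5 CPM minimum on the mean over the 4 libraries, a rule chosen after the data were seen, which 18 members met. Between the DFAT depots none of 18 passed (background 7.43% higher and 3.59% lower in iWAT_DFAT). Between the SVF depots Hist1h3c was higher in iWAT_SVF (1 of 18, 2.74%) and none was lower (3.4%). In iWAT, Hist1h2ap, Hist1h2bc and Hist1h2ab were lower in iWAT_DFAT (3 of 18, 4.83%) and none was higher (8.9%). In eWAT, Hist1h3c was higher (1 of 18, 5.72%) and Hist1h2bc lower (1 of 18, 5.94%) in eWAT_DFAT. In the depot and eWAT comparisons these counts of 0 or 1 are too small to set apart from their backgrounds.

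The log2 ratio of Hist1h2ap between iWAT_DFAT and iWAT_SVF was -2.43 among cells with 3 or more Hist1h1b UMIs and -2.64 among cells with none. In the latter it was at 4.29 and 26.7 CPM, below its 32.4 and 231 CPM in free RNA, so how much of that value was free RNA was not tested. Per Hist1h1b UMI there were 0.352 Hist1h2ap UMIs in iWAT_DFAT, 0.448 in eWAT_DFAT, 2.41 in iWAT_SVF and 0.990 in eWAT_SVF, a ratio that does not depend on the library total. In free RNA the ratio was 0.354, 0.614, 3.74 and 0.974, with the libraries in the same order. For Hist1h2bc the log2 ratio of iWAT_DFAT to iWAT_SVF was -0.93 in cells with 3 or more Hist1h1b UMIs and -1.30 in cells with none, and that of eWAT_DFAT to eWAT_SVF was -0.89 and -0.96. Free RNA held Hist1h2bc at 59.6, 102, 144 and 201 CPM in the 4 libraries. Hist1h3c differed between eWAT_DFAT and eWAT_SVF by 1.46 and 1.21 on the same scale.

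To ask which members were expressed together, cells with 3 or more Hist1h1b UMIs (Hist1h1b-high) were set against cells with none. Hist1h1b-high cells were 18.9% of iWAT_DFAT (95% Clopper-Pearson interval 18.1 to 19.8), 27.9% of eWAT_DFAT (26.8 to 29.0), 18.7% of iWAT_SVF (17.8 to 19.6) and 20.7% of eWAT_SVF (19.7 to 21.7). After thinning each cell to 5000 UMIs these shares were 9.27%, 11.4%, 7.88% and 8.32%, with eWAT_DFAT highest at either depth. The order of the others depended on depth, since eWAT_SVF was above iWAT_DFAT at full depth and below it after thinning. Free RNA held Hist1h1b at 91.5, 88.1, 61.8 and 153 CPM, and no cell type that should lack Hist1h1b was separated to give a background share. Hist1h1b-high cells were deeper, with median UMIs of 29692, 33250, 31101 and 33192 against 20022, 23559, 22689 and 25842.

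The summed level of the other histone genes was higher where Hist1h1b was, with members that went against the sum given further on. It was 1217 CPM in Hist1h1b-high cells against 220 in cells with none in iWAT_DFAT, 1202 against 296 in eWAT_DFAT, 2360 against 364 in iWAT_SVF and 1486 against 441 in eWAT_SVF. Hist1h1b-high cells held 63.7%, 67.0%, 64.8% and 52.3% of the UMIs of the other members. Without Hist1h2bc, these shares were 70.5%, 75.1%, 75.5% and 66.5%, with eWAT_SVF lowest in both.

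At 5 CPM or more in the higher group, 30 of 33 members were 2-fold or more higher in Hist1h1b-high cells in iWAT_DFAT (background 4.16%), 25 of 29 in eWAT_DFAT (3.83%), 31 of 35 in iWAT_SVF (4.39%) and 22 of 27 in eWAT_SVF (4.85%), and 20 of 25 were so in all 4 libraries (3.53%). A member that met the minimum only through Hist1h1b-high cells had to be higher there, so the members were also counted without it. Of the 62 other members with UMIs in both groups of cells in all libraries, 57 were higher in Hist1h1b-high cells in all 4 libraries (25.9% of the 18271 genes under the same rule), 50 of them by 2-fold or more (2.52%), and 3 were lower in all 4 (25.8%). With the minimum set on the mean level over the libraries, 15 of 17 were higher in all 4 (34.3% of all genes under that rule), 13 of them by 2-fold or more (2.92%), and 1, Hist1h2bc, was lower in all 4 (31.1%). That mean was taken over all cells, so a member could still meet it only through Hist1h1b-high cells. Hist1h1a, for instance, was at 0.465 to 0.816 CPM in cells with none. By class, the counts of members higher by 2-fold or more in all 4 libraries without a minimum were 3 of 5 H1, 14 of 16 H2A, 13 of 16 H2B, 8 of 12 H3 and 12 of 13 H4 genes. The 4 members left out had no UMI in a group of cells in at least 1 library. The cells were split on a member of the set, so these counts describe how far the others follow it.

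Among the 25 members at 5 CPM or more in the higher group in all 4 libraries, the 5 with the highest ratios were Hist1h1a, Hist1h2an, Hist1h2ap, Hist1h2ab and Hist1h2ai. They met the minimum only through Hist1h1b-high cells, Hist1h2ap in iWAT_DFAT and the others in all 4 libraries. Without the minimum, Hist1h2af (median log2 6.75, on 1 to 20 UMIs in cells with none) and the H2B gene Hist1h2bn (5.07) were also among the 5 highest, so no class make-up is read from this order. Hist1h1a stood at 28.7 CPM in Hist1h1b-high cells against 0.466 in cells with none in iWAT_DFAT, 26.0 against 0.816 in eWAT_DFAT, 26.1 against 0.523 in iWAT_SVF and 25.3 against 0.465 in eWAT_SVF. Its median log2 ratio was 5.70, the highest of the 25, with values of 4.99 to 5.94. Hist1h2ap stood at 201 against 4.29, 208 against 9.46, 1081 against 26.7 and 502 against 15.5 CPM in the same order (median 5.18). The others were Hist1h2an (median 5.33), Hist1h2ab (5.03) and Hist1h2ai (4.45). All 3 are H2A genes with over 50% of their windows shared with other genes, as is Hist1h2ap.

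Members of every class rose among the rest of the 25. Hist1h2ae was higher by 4.21 on the log2 scale in iWAT_DFAT, 4.14 in eWAT_DFAT, 4.84 in iWAT_SVF and 4.34 in eWAT_SVF. The median log2 ratios were 3.63 for Hist1h3c, 3.51 for Hist1h3f, 3.01 for Hist1h3e, 3.18 for Hist1h4d, 3.10 for Hist1h2bj and 2.44 for Hist1h4h. Among linker histones, Hist1h1e was at 223 against 25.7, 193 against 30.2, 188 against 18.5 and 223 against 41.4 CPM (median 2.90) and Hist1h1d had a median of 3.47. The 4 H1 genes beside Hist1h1b in this set thus differed in size of change, since Hist1h1a rose by over 5 log2 units in 3 of 4 libraries and Hist1h1c passed 2-fold in 1.

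Among the 25 members, Hist1h2bc was the one with lower values in Hist1h1b-high cells in all 4 libraries. It stood at 35.5 CPM in Hist1h1b-high cells against 68.3 in cells with none in iWAT_DFAT, 56.0 against 117 in eWAT_DFAT, 67.9 against 168 in iWAT_SVF and 104 against 229 in eWAT_SVF. The log2 ratios were -0.94, -1.07, -1.31 and -1.14. They are relative to the UMIs of the cells, and Hist1h1b-high cells were deeper, so the fall in UMIs per cell was smaller. In CPM, Hist1h2bc was the member that fell by 2-fold or more in eWAT_DFAT (1 of 29, background 1.12%), iWAT_SVF (1 of 35, 0.259%) and eWAT_SVF (1 of 27, 0.14%). In iWAT_DFAT no member of 33 did (1.02%), and so none of 25 did in all 4 libraries (0.0108%). The near-identical H3 genes Hist2h3c1 and Hist2h3c2 were also lower in Hist1h1b-high cells in all 4 libraries, with median log2 ratios of -1.77 and -1.22, at 0.242 to 2.82 CPM and thus under the minimum. The windows of Hist2h3c1 are all shared with other genes.

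The other members at the bottom of the order of the 25 were Hist3h2a, Hist1h1c, Hist1h4i and Hist1h2be. Hist3h2a stood at 8.21 against 7.85, 7.78 against 9.53, 8.70 against 13.5 and 6.09 against 8.10 CPM (median log2 -0.35). Hist1h1c stood at 69.3 against 26.4, 65.2 against 38.3, 63.2 against 51.5 and 74.9 against 69.2 CPM (median 0.53), and passed the 2-fold limit in iWAT_DFAT. Hist1h4i stood at 35.7 against 20.1, 33.8 against 19.8, 21.2 against 14.7 and 23.4 against 14.1 CPM (median 0.75). Hist1h2be had a median of 1.67 and, unlike the other members here, passed the 2-fold limit in all 4 libraries.

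**Figure D3:**
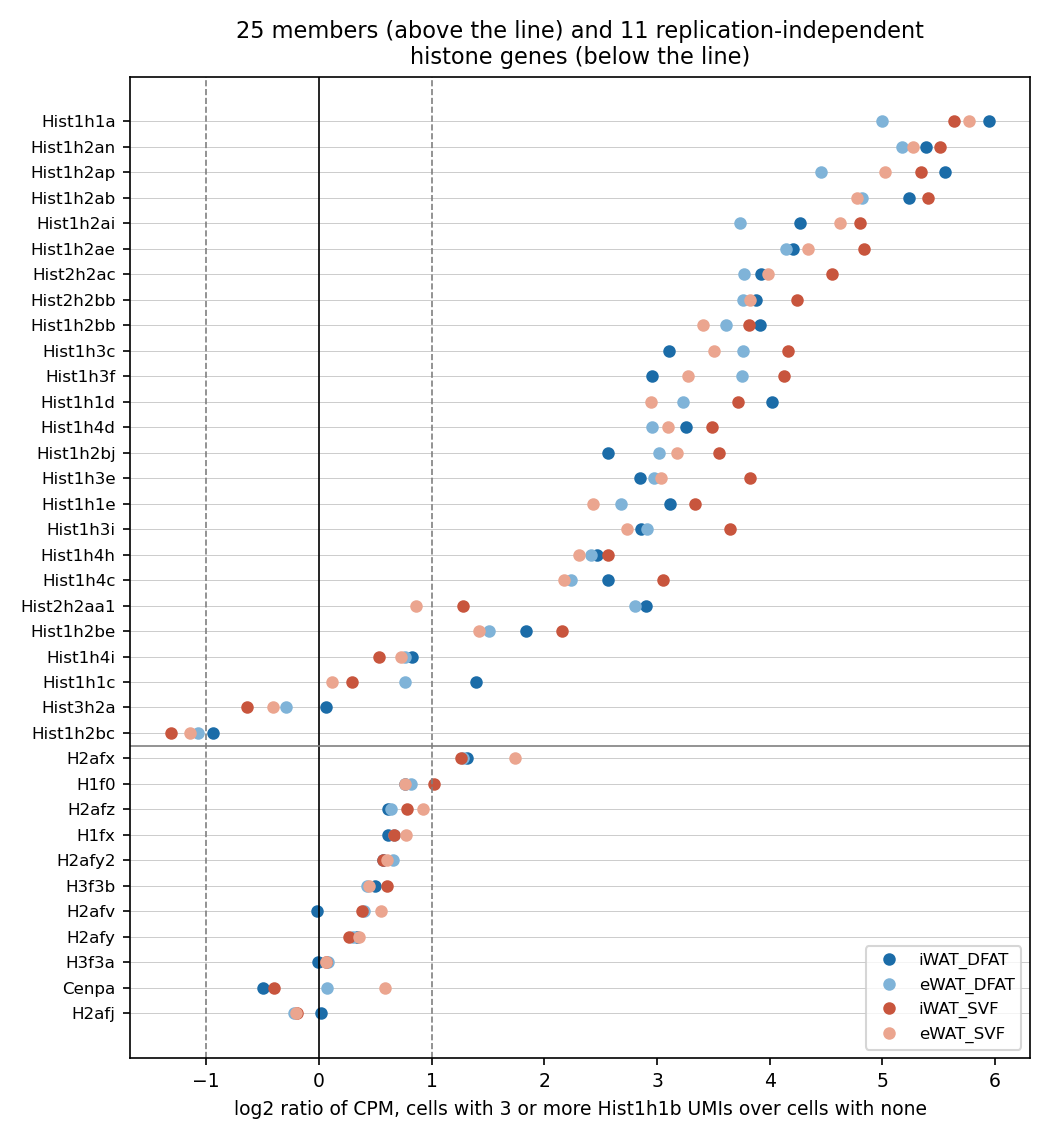
Log2 ratio of CPM between cells with 3 or more Hist1h1b UMIs and cells with none, with 1 point per library, for the 25 histone genes at 5 CPM or more in the higher group in all libraries (above the line) and 11 replication-independent histone genes (below it). Dashed lines mark 2-fold, which 20 of the 25 members exceeded in all 4 libraries, whereas Hist1h2bc lay between -1.31 and -0.94.

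Among the same 25 members, the 4 with a median under 1 had longer annotated ends. Hist1h4i, Hist1h1c, Hist3h2a and Hist1h2bc are annotated to a median of 811 bases after the stop codon, each over 300, against a median of 94 bases for the 21 members with a median log2 ratio of 1 or more, of which 7 were over 300. Of all 67 members, 22 were over 300. Some of the 21, such as Hist1h2an and Hist1h2ai, are annotated only to their stop codon. The medians therefore describe the annotation, and mRNA ends in these cells were not measured. The minimum was met by some of the 21 only through Hist1h1b-high cells. Without it, 9 of the 62 members had a median under 1, with a median of 799 bases after the stop and 8 over 300, and the other 53 had a median of 89 bases and 13 over 300. Hist1h4d, Hist1h1e and Hist1h2be are among the long ones that rose. As shown above, 3 of these 4 (Hist1h4i, Hist1h1c and Hist3h2a) carry the stem-loop, and their annotated transcripts run 330, 840 and 1643 bases past it. The 7 members over 300 bases among the 21 carry it too. Their transcripts run from 365 (Hist1h3f) to 4884 bases (Hist1h1d) past it, so this trait did not set the 4 apart.

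Levels were also read along a graded scale of Hist1h1b. In iWAT_SVF, Hist1h2ap was at 26.7 CPM in cells with no Hist1h1b UMI, 113 in cells with 1 or 2, 552 with 3 to 9, 1270 with 10 to 24 and 1633 with 25 or more. In eWAT_DFAT it was at 9.46, 21.04, 84.2, 255 and 344 CPM. Hist1h2bc went the other way, at 168, 108, 79.4, 65.1 and 53.7 CPM in iWAT_SVF and 117, 79.6, 61.4, 56.2 and 47.3 CPM in eWAT_DFAT. Hist1h2bc was lower in every next bin in all 4 libraries, and Hist1h2ap was higher in every next bin. Hist1h1c followed neither course in the SVF libraries, at 51.5, 39.7, 49.6, 63.1 and 86.6 CPM in iWAT_SVF and 69.2, 63.1, 56.6, 66.3 and 110 CPM in eWAT_SVF.

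**Figure D4:**
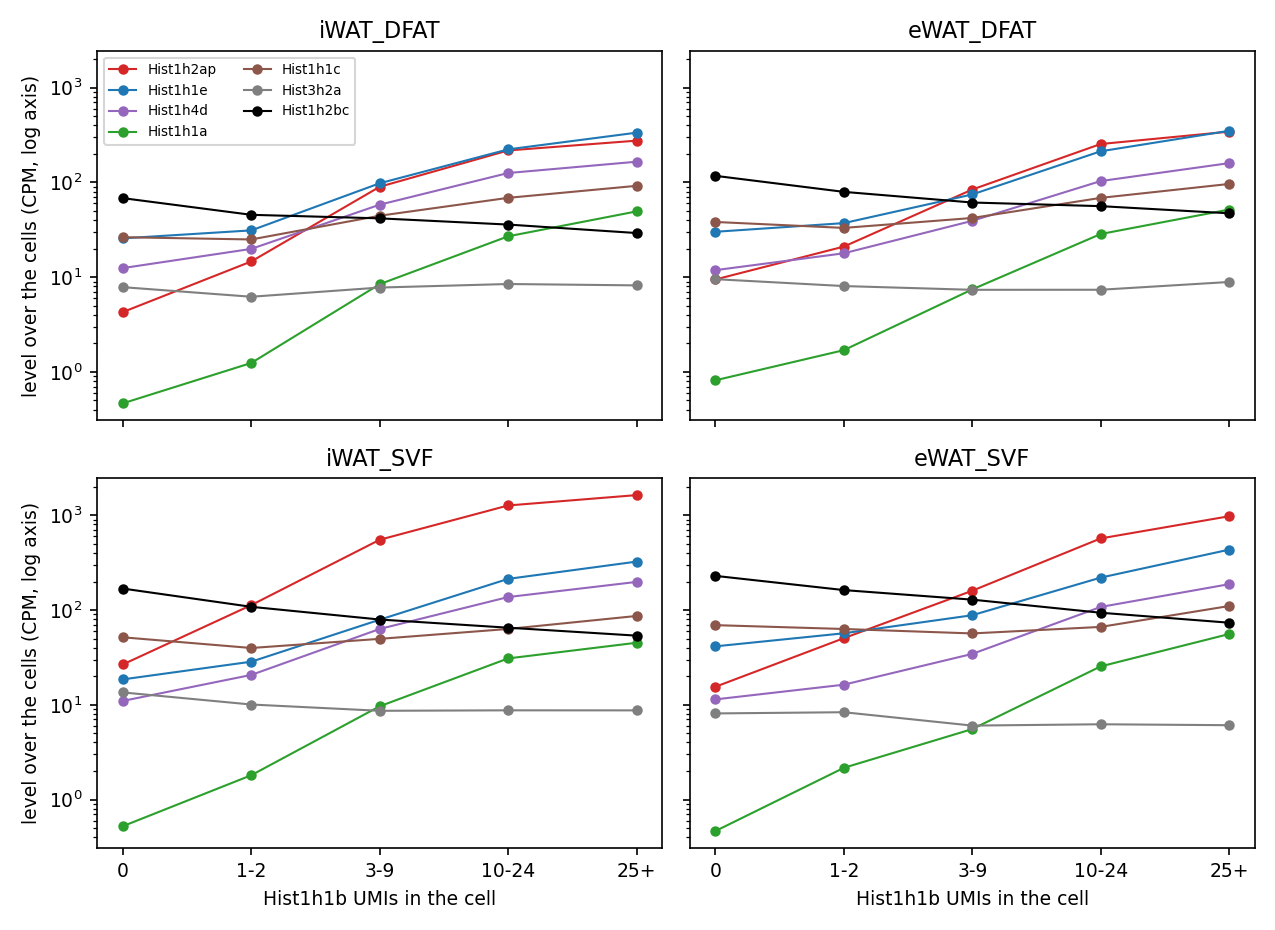
Level in CPM (log axis) of 7 histone genes in cells grouped by Hist1h1b UMIs (0, 1 to 2, 3 to 9, 10 to 24, 25 or more), 1 panel per library. Hist1h2ap, Hist1h1e, Hist1h4d and Hist1h1a climbed, Hist3h2a stayed between 6.03 and 13.5 CPM, and Hist1h2bc declined from 68.3 to 29.3 CPM in iWAT_DFAT and from 229 to 73.5 CPM in eWAT_SVF.

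Cells without Hist1h1b may hold both resting cells and cycling cells outside S phase. They were therefore grouped by the summed UMIs of 20 G2 and M phase genes, a division chosen after these values were seen. Cells with 2 or fewer such UMIs were set beside cells with 20 or more, and cells between these limits were left out. In iWAT_DFAT the 2 groups held 2476 and 1217 of 5153 cells without Hist1h1b. The limits were not scaled to depth, and cells with 20 or more had more UMIs (median 23471 against 18357 in iWAT_DFAT). The summed level of these genes was also higher in Hist1h1b-high cells. It therefore does not by itself place a cell in G2 or M phase. Hist1h2bc was at 76.1 CPM in iWAT_DFAT cells with 2 or fewer G2 and M phase UMIs, 52.9 in those with 20 or more and 35.5 in Hist1h1b-high cells. It was at 161, 70.4 and 56.0 CPM in eWAT_DFAT, 203, 118 and 67.9 in iWAT_SVF, and 265, 153 and 104 in eWAT_SVF. Hist1h2bc was thus highest in cells low in G2 and M phase genes in all 4 libraries. Hist1h4i showed another order, at 12.5, 32.9 and 35.7 CPM in iWAT_DFAT, 15.2, 28.6 and 33.8 in eWAT_DFAT, 10.1, 21.6 and 21.2 in iWAT_SVF and 11.9, 20.7 and 23.4 in eWAT_SVF. Its level in cells with 20 or more G2 and M phase UMIs was thus close to that in Hist1h1b-high cells. Hist1h2ap was below its level in Hist1h1b-high cells in both groups without Hist1h1b. Of these 2 groups it was higher in the one with 20 or more G2 and M phase UMIs in every library, at 2.22 and 8.05 CPM in iWAT_DFAT, 4.37 and 16.95 in eWAT_DFAT, 13.7 and 49.6 in iWAT_SVF and 9.77 and 32.8 in eWAT_SVF.

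**Figure D5:**
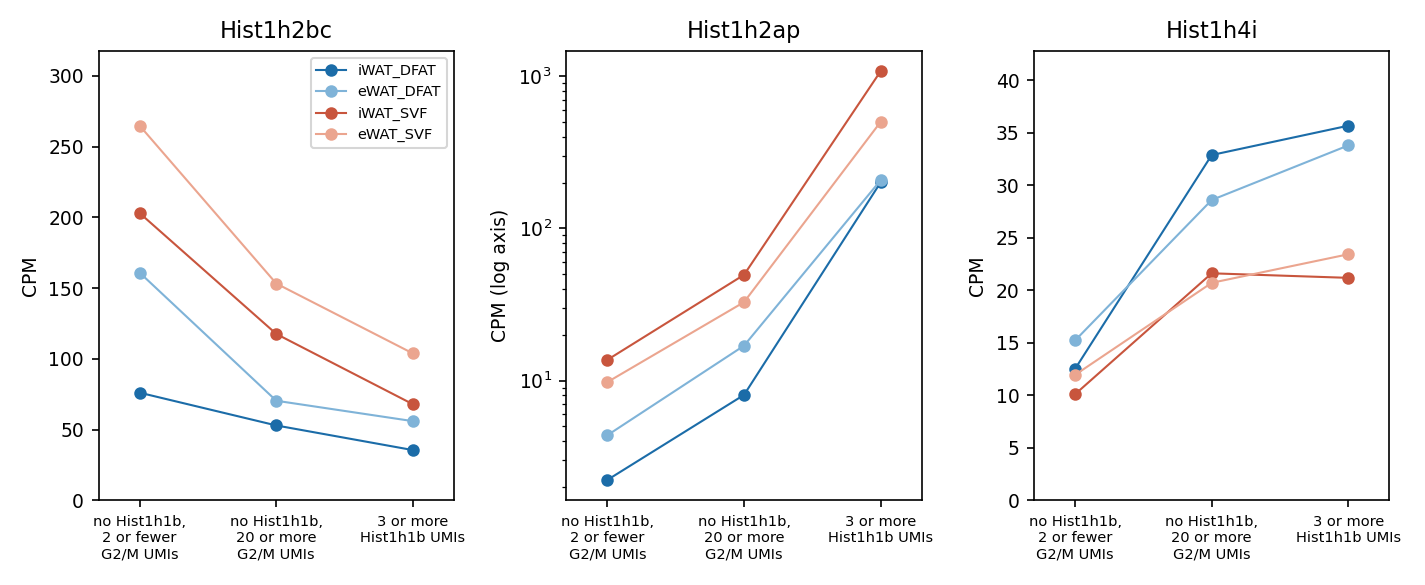
Level in CPM of Hist1h2bc, Hist1h2ap (log axis) and Hist1h4i in cells without Hist1h1b and with 2 or fewer G2 and M phase UMIs, in cells without Hist1h1b and with 20 or more, and in Hist1h1b-high cells, 1 line per library. Hist1h2bc stepped down from 265 to 104 CPM in eWAT_SVF, while Hist1h4i reached 32.9 of its 35.7 CPM in iWAT_DFAT already in the middle group.

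The genes around the histone pathway were read in the same split. Of 24 S phase genes, 22 were 2-fold or more higher in Hist1h1b-high cells in all 4 libraries (median log2 ratio 1.95), beside 3.53% of all genes tested, and of 20 G2 and M phase genes, 8 were (1.15). Of 13 genes of histone mRNA processing at the minimum, 3 passed, among them Slbp, which binds the stem-loop, at 87.5 against 28.8, 70.7 against 32.9, 80.5 against 29.0 and 67.2 against 26.0 CPM, and Eri1, an exonuclease that trims histone mRNA ends (list median 0.38). Of 16 histone chaperones 5 passed, Asf1b, Chaf1a, Chaf1b, Nasp and Hat1 (0.54), of which Chaf1b is also counted among the S phase genes. Of the 11 genes listed as replication-independent, only H2afx, the variant marked at DNA breaks, did (0.47). Windows of Hist1h2ap, Hist1h2ab and other H2A members also occur in H2afx, so a read within them cannot be assigned to H2afx alone. How such reads were counted, and their part in the rise of H2afx, was not tested. Whether H2afx has the introns and mRNA ends described for H3.3 and H2A.Z was not tested either. The H3.3 gene H3f3b was at 1546 against 1096, 1252 against 930, 1156 against 761 and 989 against 725 CPM, and the H2A.Z gene H2afz at 1110 against 727, 1255 against 805, 1190 against 691 and 1309 against 689 CPM. Cells without Hist1h1b were mixed for H2afz. In iWAT_DFAT it was at 328 CPM in those with 2 or fewer G2 and M phase UMIs and 1291 in those with 20 or more. In the same order it was at 358 and 1423 in eWAT_DFAT, 304 and 1351 in iWAT_SVF and 353 and 1567 in eWAT_SVF. Its level in Hist1h1b-high cells lay between these values in every library. The replication-independent genes summed to 3081 to 3631 CPM, above all 67 members together in each library.

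Of 8 stromal markers at the minimum in all libraries none passed in either direction (median -0.15). The 5 adipocyte markers summed to 16.9 CPM in Hist1h1b-high cells against 153 in cells with none in eWAT_DFAT, and to 17.0 against 27.2 in iWAT_DFAT, 0.199 against 0.539 in iWAT_SVF and 0.659 against 1.38 in eWAT_SVF. The endothelial markers summed to 2.99 against 7.18 CPM in iWAT_DFAT, 8.80 against 31.8 in eWAT_DFAT, 6.79 against 9.998 in iWAT_SVF and, in the other direction, 28.3 against 23.5 in eWAT_SVF. The glial markers summed to 1.23 against 4.77 CPM in iWAT_DFAT, 1.03 against 1.26 in eWAT_DFAT, 11.7 against 22.2 in iWAT_SVF and 0.761 against 0.752 in eWAT_SVF, and the pericyte markers to 6.96 against 9.69, 7.31 against 16.2, 19.7 against 21.5 and 17.3 against 13.7 CPM in that order. Genes of a list did not all follow its sum. In iWAT_DFAT, Plin1 was at 5.80 against 17.8 CPM, but Car3 at 6.04 against 4.18 and Cfd at 4.42 against 3.58 CPM. The mesothelial markers summed to 4.91 against 5.96, 28.1 against 24.8, 59.3 against 75.5 and 85.1 against 77.1 CPM and the immune markers to 19.1 against 20.4, 13.8 against 15.98, 11.5 against 12.9 and 16.8 against 16.2 CPM. The mesothelial sum of iWAT_SVF was almost all Krt19 (59.2 against 75.3 CPM), with Wt1, Upk3b, Lrrn4 and Msln each at 0.0624 CPM or less. The immune sums were mostly Csf1r, at 8.81 to 18.8 CPM over all groups of cells, whereas Ptprc, which marks blood cells, was at 0 to 0.679 CPM. In eWAT_SVF, Csf1r was at 11.2 against 13.2 CPM and Cd52 at 2.14 against 0.600 CPM. The part of these cells in the histone values of cells without Hist1h1b was not tested.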

How the data were processed

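Single-cell RNA-seq libraries of 4 groups, 1 each, were analysed from the deposited counts, which are UMIs per gene and barcode with empty droplets included. The submitters' processing notes name Cell Ranger 7.0.0 and build mm10, whereas per the file headers iWAT_SVF came from Cell Ranger 4 and the others from 7.1.0. The authors' later removal of background RNA and doublets is not in these counts. Barcodes were kept by the limits given above, no doublet caller was run, and UMIs were summed per library or per group of cells and scaled to 1000000 per library or group (CPM). Ratios carry 95% conditional binomial intervals and levels exact Poisson intervals, which cover counting error only, since cells are not replicates. No test was run because each group was 1 library, so members were called at 2-fold with 5 CPM in the higher group.

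The members and lists were chosen with earlier results of these data known. Named were, by rule, the 3 highest members of each class, members past 2-fold between libraries, the 5 highest and 5 lowest ratios of the Hist1h1b split, Hist1h1b, Hist1h2ap, the 5 H1 genes Hist1h1a to Hist1h1e, and up to 4 genes a list; Hist2h3c1, Hist2h3c2, Hist1h2af, Hist1h2bn, the marker genes and genes named as all those that passed in a list, were chosen after their values were seen. Transcript ends and stem-loops came from GENCODE M21, promoters from RefSeq. On simulated data for iWAT_DFAT against iWAT_SVF over 9792 genes, 200 of 200 changed genes were recovered, 0 unchanged genes were called, and intervals covered 95.4% of true values. The simulated counts varied by Poisson counting error alone, and the changes were set past the 2-fold limit. That run therefore checks the computation only and cannot speak to differences between real libraries. Other cell limits, scalings, minimums, fold limits, splits and a subtraction of free RNA were tried. Python 3.11.15 with numpy 2.4.6, pandas 2.3.3, scipy 1.17.1 and matplotlib 3.10.9 was used.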

Additional observations from a re-analysis of the deposited data

Results flagged for a closer look

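Values were singled out where a member lay on opposite sides of 0 under the same contrast in the 2 depots or the 2 cell types, with log2 ratios at least 1 apart, both counting intervals excluding 0 and 5 CPM or more in the higher library of both comparisons. Each group was 1 library, so none of these differences was tested. For DFAT over SVF cells, Hist1h2ae had a log2 ratio of -0.87 in iWAT and 0.57 in eWAT, and Hist1h3c had -0.39 in iWAT and 1.72 in eWAT. For iWAT over eWAT, Hist1h2ap had -0.53 in DFAT cells and 0.98 in SVF cells. Hist1h2ae had -0.68 and 0.77, Hist1h3c -0.64 and 1.48, and Hist1h2ab -0.32 and 0.80 in the same order. These contrasts share libraries, so the values of a gene are not independent of each other.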

How the results depend on the processing

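No paired analysis was possible because the labels give no replicate numbers and each group was 1 library. Of 114 summary values recomputed under other settings, 77 stayed within the limits set and 37 moved. Counts had to stay within 1.5-fold and other values within the counting interval of the main value. Most were counts or shares, which cannot reverse, and the log2 ratio among them did not. Of 355 recomputed log2 ratios of named members, 308 stayed within the limits set for them and 47 moved. All 151 recomputed values of named log2 ratios of 1 or more in size kept their direction. The share of Hist1h1b-high cells was 26.0% in eWAT_DFAT, 17.7% in iWAT_SVF and 19.2% in eWAT_SVF with a lower limit of 500 UMIs, and 29.4% in eWAT_DFAT with 10000. It was 19.97% in iWAT_DFAT and 21.8% in eWAT_SVF with no gene limit, and 17.8% in iWAT_DFAT without the deepest 5% of barcodes. With free RNA subtracted it was 17.3%, 24.5%, 16.8% and 17.6%, and after thinning to 5000 UMIs 9.27%, 11.4%, 7.88% and 8.32% (iWAT_DFAT, eWAT_DFAT, iWAT_SVF, eWAT_SVF). The Hist1h2ap share in iWAT_SVF was 29.8% with no gene limit and 28.9% without the deepest barcodes. The log2 ratio of all members, iWAT_DFAT over iWAT_SVF, was -0.65 without the deepest barcodes, -0.69 with median-of-ratios scaling and -0.69 as a mean of per-cell CPM. Members past the limit numbered 0 of 7 for iWAT_SVF against eWAT_SVF, 2 of 8 for iWAT_DFAT against iWAT_SVF and 1 of 9 for eWAT_DFAT against eWAT_SVF at a minimum of 20 CPM (5.7%, 14.6% and 11.7% of all genes in either direction), and 3 of 44, 11 of 45 and 7 of 43 at 1 CPM (10.5%, 18.7% and 17.1%). At 1.5-fold they numbered 3 of 20 for the DFAT depots (26.7%) and 8 of 20, 8 of 21 and 11 of 20 for the others in that order (14.7%, 28.5% and 28.2%), and with free RNA subtracted 4 of 21 for eWAT_DFAT against eWAT_SVF (13.2%). With the minimum on the mean over the libraries they numbered 3 of 18 for iWAT_DFAT against iWAT_SVF (13.7%). Members higher in Hist1h1b-high cells in all libraries numbered 9 of 12 at 20 CPM (3.28% of all genes). The count of members lower there became 1, Hist1h2bc, without the deepest barcodes, with free RNA subtracted, at 1.5-fold and after thinning. Leaving out iWAT_SVF or eWAT_SVF, chosen after seeing the data, gave 20 of 25 and 25 of 29 higher members (3.55% and 3.59% of all genes). The causes of these shifts were not tested, except that a changed minimum or fold limit alters which members can be called. With 1 library a group, the precision of a level is limited by the number of libraries and not by depth.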
